A study of Mus musculus with 24 samples.

Results

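The miR-181 family of the mouse has 4 mature members, mmu-miR-181a, mmu-miR-181b, mmu-miR-181c and mmu-miR-181d, and they were chosen here by name. The panel covered them with 3 of its 566 mouse miRNA probes: 1 each for mmu-miR-181a and mmu-miR-181c, and 1 that mmu-miR-181b and mmu-miR-181d share. The shared probe is written miR-181b/d, and its counts cannot be divided between both miRNAs. No other probe of the panel carried the family's name.

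The 24 samples came from a mouse mammary tumour model built on the JygMC(A) cell line. JygMC(A) goes back to a mammary tumour of a wild Sub-Jyg mouse, and its Int3/Notch4 gene holds a provirus of the mouse mammary tumour virus. Cells tagged with GFP and luciferase were placed in the fourth mammary fat pad of female Balb/C nude mice aged 6 to 9 weeks, which lack T cells of thymic origin. No group received a drug.

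The cell line was profiled as monolayer (2 samples) and as spheres of the third generation on ultra-low adherent plates (2 samples). Laser capture gave carcinoma areas (5 samples) and EMT-like areas (7 samples, named for epithelial-to-mesenchymal transition) of primary tumours, together called PT, and lung metastases (4 samples). Normal mammary gland, or NMG, and normal lung parenchyma had 2 samples each. A carcinoma, an EMT-like and a lung metastasis sample were each named by 3 animals and were pools. The labels of the 4 normal samples mark a separate set of samples, so set and normal tissue cannot be told apart.

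MicroRNAs bind messenger RNAs mainly through their seed, bases 2 to 8 of the mature strand, and lower the output of the bound messages. In developing T cells, miR-181a tunes the sensitivity of T cell receptor signalling. In mammary cells, TGF-beta has been reported to raise miR-181a, and sphere culture is a common way to enrich cells that grow without attachment.

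The sequences are shown because the 4 names share a seed while the probes have to tell the rest of the strand apart. Capitals mark the seed, and the sequences and positions are from RefSeq on build GRCm38.p6, where all 4 names matched.
mmu-miR-181a: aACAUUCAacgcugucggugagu
mmu-miR-181b: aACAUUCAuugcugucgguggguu
mmu-miR-181c: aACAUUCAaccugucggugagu
mmu-miR-181d: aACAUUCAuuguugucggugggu
Of 1679 mature mouse names in that source, these 4 held the seed and no other did. Counted from 1 at the 5′ end, miR-181b differed from miR-181a by A9U, C10U and A21G and was 1 base longer. miR-181d differed from miR-181a by A9U, C10U, C12U and A21G, and from miR-181b by C12U, with miR-181b again 1 base longer. miR-181c differed from miR-181a only by lacking base 11. Whether miR-181a RNA was counted by the probe for miR-181c was not tested.

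The genes lie in 3 pairs. Mir181a-1 (chr1:137966468-137966490, plus strand) was 159 bases from Mir181b-1 (chr1:137966650-137966673), measured between the mature strands. Mir181a-2 (chr2:38852741-38852763, plus strand) was 1081 bases from Mir181b-2 (chr2:38853845-38853868). Mir181c (chr8:84178924-84178945, minus strand) was 142 bases from Mir181d (chr8:84178759-84178781). The mature strands of each a or b pair are identical between chromosomes 1 and 2, so the counts do not say which locus was the source.

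Depth differed strongly between groups. The summed counts of all mouse miRNAs were 46507 and 26420 in the monolayer samples and 38689 and 33419 in the spheres. They ran from 115259 (median 132803) to 164785 in carcinoma areas, from 111602 (median 155231) to 184501 in EMT-like areas, and from 62583 (median 106188) to 115278 in lung metastases. NMG samples reached 560247 at most, and the normal lung samples had 590022 and 2335745, so normal lung replicate 2 stood apart from every other sample. The spheres pair stood apart in another way: its replicates differed by a chi-square per degree of freedom of 2.72, against 24.8 to 304 in the other 40 pairs of samples within a group. Whether they were independent cultures was not tested.

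A member was taken as detected where its count passed the mean plus 2 standard deviations of the 6 negative control probes of that sample, a limit of 4 to 21.4. miR-181a was detected in 24 of 24 samples. The miR-181b/d probe was detected in 18 of 24: in none of the 4 culture samples, and neither in carcinoma replicate 4 nor in lung metastasis replicate 2. miR-181c was detected in 22 of 24, all but monolayer replicate 1 and spheres replicate 1. Fitted differences of miR-181b/d against the cultures thus come from counts under the limit, so they measure no size, and a change of their sign gives no direction. Those of miR-181c rest on 1 detected sample of the 2 in each culture form.

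The deposited counts of miR-181a, with background subtracted, were 209 and 270 in monolayer and 679 and 636 in spheres. In carcinoma areas they were 1237, 818, 1251, 661 and 1113, and in EMT-like areas they ran from 882 (median 995) to 1617. Both sphere samples were above both monolayer samples while the depth of both lay between those of the monolayer samples. Lung metastases had counts of 890, 372, 575 and 731, NMG had 2408 and 1685, and normal lung had 6902 and 21065. These counts follow the depth of the samples as well as the miRNA, so levels were compared after scaling by trimmed mean of M values (TMM).

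The TMM-scaled level of miR-181a was 325 and 550 in monolayer, 1183 and 1576 in spheres, and 4275 and 3739 in normal lung. It was 1372, 966, 1198, 826 and 1517 in carcinoma areas, ran from 799 (median 910) to 1280 in EMT-like areas, and was 1172, 710, 738 and 1065 in lung metastases. NMG had levels of 992 and 626. Normal lung was above every other sample and monolayer below every other sample, while the groups between overlapped with their neighbours in the order of means, and spheres were above all lung metastases and NMG samples. Group means with standard deviations were 4007 ± 380 (normal lung), 1380 ± 278 (spheres), 1176 ± 284 (carcinoma), 945 ± 160 (EMT-like), 921 ± 232 (lung metastasis), 809 ± 259 (NMG) and 437 ± 160 (monolayer).

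Among neighbours in this order, 2 steps passed the test across all 583 probes, at an adjusted p under 0.05 in limma. Normal lung was above spheres by 1.55 on the log2 scale (adjusted p = 0.000725), where 61.2% of probes were called in the same comparison. NMG was above monolayer by 0.90 (standard error 0.35, adjusted p = 0.0436), where 41.3% of probes were called. The 4 steps between did not differ beyond their spread. Spheres over carcinoma was 0.25 (adjusted p = 0.723, 21.4% of probes called), carcinoma over EMT-like 0.30 (adjusted p = 0.531), EMT-like over lung metastasis 0.06 (adjusted p = 1, 7.72% called) and lung metastasis over NMG 0.19 (adjusted p = 0.783, 25.6% called). The steps were also tested under the other scalings, after the data were seen, and 5 of 6 changed sign under at least 1, all but EMT-like over lung metastasis. NMG over monolayer turned to -0.87 under the sum of mouse miRNAs (adjusted p = 0.0290) and -0.93 under the 100 most abundant (adjusted p = 0.0225), with the median of all probes shifted by -0.54 in both. It was 3.08 without scaling (adjusted p = 1.15e-05, shift 1.36). Probes with 0 counts do not move with scaling, so here and below a shift of this median can be smaller than that of detected probes. Lung metastasis over NMG was 0.79 under the sum (adjusted p = 0.0358, shift 0.33) and -1.72 without scaling (adjusted p = 0.00192, shift -1.35). Spheres over carcinoma was 1.31 under the sum (adjusted p = 0.00104, shift 0.00) and -0.58 without scaling (adjusted p = 0.477).

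Taken as a share of the summed mouse miRNA counts of each sample, the order was different at both ends. miR-181a made up 1.76 and 1.90 percent of the sum in spheres, 1.17 and 0.902 percent in normal lung, and 0.449 and 1.02 percent in monolayer. Its share was 0.868, 0.696, 0.759, 0.573 and 0.838 percent in carcinoma areas, 0.545 to 0.876 percent (median 0.705) in EMT-like areas, 0.786, 0.594, 0.580 and 0.634 percent in lung metastases, and 0.430 and 0.321 percent in NMG. Spheres had the highest shares of all samples by this measure and NMG the lowest, below both monolayer samples, and monolayer replicate 2 lay within the range of normal lung.

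**Figure D1:**
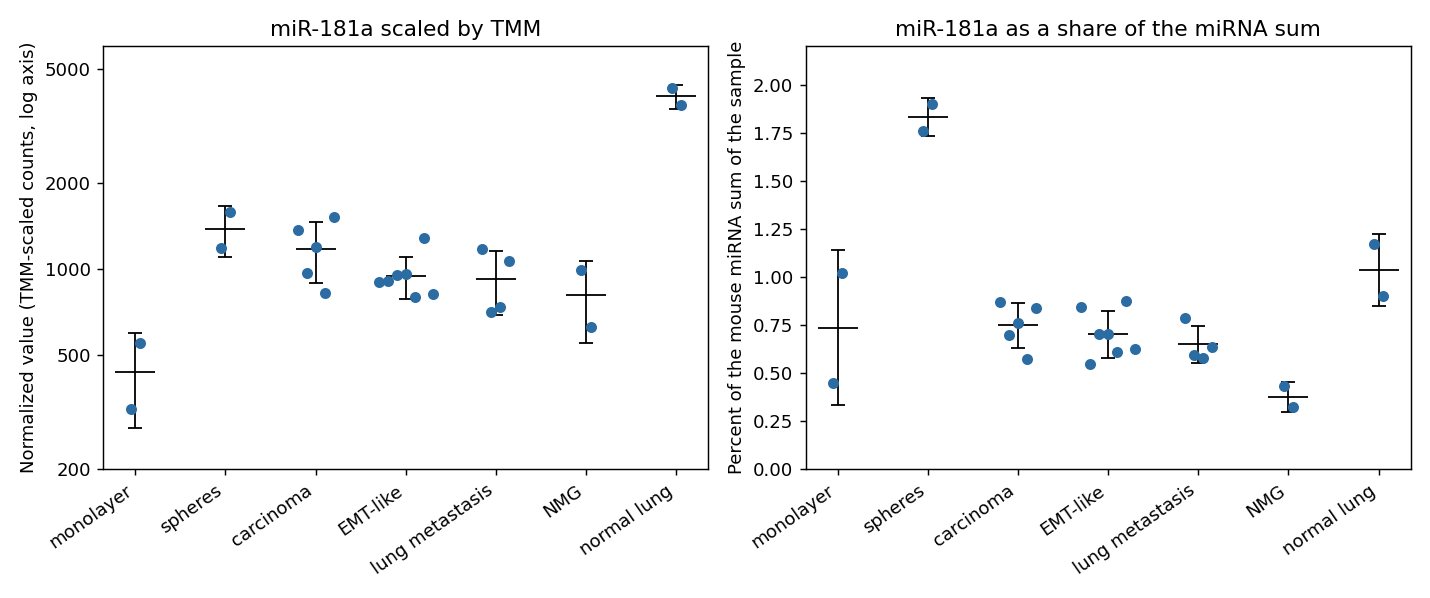
Each point is a sample, left as the TMM-scaled level of miR-181a (log axis) and right as its percent of the summed mouse miRNA counts, by group. Bars are the mean ± standard deviation, and the right panel turns the order of normal lung against spheres and of NMG against monolayer seen on the left.

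The miR-181b/d probe gave few counts. They were 10 and 5 in monolayer, 7 and 8 in spheres, 21, 48, 51, 15 and 26 in carcinoma areas, 18 to 45 (median 30) in EMT-like areas, 18, 17, 36 and 29 in lung metastases, 41 and 54 in NMG and 62 and 213 in normal lung. TMM-scaled levels were 15.5 and 10.2 in monolayer, 12.2 and 19.8 in spheres, 23.3, 56.7, 48.8, 18.7 and 35.4 in carcinoma areas, and 14.3 to 38.4 (median 27.2) in EMT-like areas. Lung metastases had levels of 23.7, 32.4, 46.2 and 42.2, NMG 16.9 and 20, and normal lung 38.4 and 37.8. The culture values, all under the limit, are not ranked. Among the tissues carcinoma areas held the highest sample under TMM, and every pair of neighbours in the order of group means overlapped. By share of the miRNA sum the normal tissues had the lowest means of the tissues, 0.00880 percent in NMG and 0.00981 in normal lung.

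Counts of miR-181c were 13 and 17 in monolayer, 16 and 16 in spheres, 36, 25, 54, 21 and 22 in carcinoma areas, 16 to 31 (median 26) in EMT-like areas, 34, 19, 29 and 24 in lung metastases, 71 and 94 in NMG and 198 and 496 in normal lung. Its TMM-scaled levels were 20.2 and 34.7 in monolayer, 27.9 and 39.7 in spheres, 39.9, 29.5, 51.7, 26.2 and 30 in carcinoma areas and 14.5 to 27.7 (median 22.6) in EMT-like areas. They were 44.8, 36.3, 37.2 and 35 in lung metastases, 29.3 and 34.9 in NMG, and 123 and 88.0 in normal lung. Under TMM normal lung was above all other samples for miR-181c, EMT-like areas had the lowest mean of the tissues, and the groups between overlapped with their neighbours. By share of the miRNA sum the 2 culture samples over the limit, spheres replicate 2 (0.0479 percent) and monolayer replicate 2 (0.0643), were above both normal lung samples (0.0336 and 0.0212). NMG had the lowest mean of the tissues (0.0153, EMT-like areas 0.0161).

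Spheres were compared with monolayer to ask how the family differs with culture form. In this comparison 27 of 583 probes were called (4.63%), 17 higher and 10 lower in spheres, and 1 of the 3 family probes was among them. The split of all calls depended on the scaling: it was 16 higher and 25 lower under the sum of mouse miRNAs, 14 and 26 with the 100 most abundant, 16 and 21 with the miRNAs detected in every sample, 9 and 0 with the 4 mRNA controls, and 7 and 1 without scaling. miR-181a rose by 1.69 on the log2 scale (standard error 0.35, 95% interval 0.97 to 2.41, adjusted p = 0.00522), or 3.23-fold, with 2 of 2 sphere samples above both monolayer samples. How many of all probes separated the groups in this way was not counted, here or in the comparisons below. The median over all probes was 0.00. miR-181b/d, under the limit in all 4 samples, and miR-181c, with a log2 difference of 0.32, had adjusted p = 1.

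The difference in miR-181a was of the same sign under every scaling tried, from 1.40 with the mean of the 100 most abundant miRNAs (adjusted p = 0.00840) to 2.38 with the 4 mRNA control probes. The call was lost under the latter (adjusted p = 0.0908) and without scaling (1.46, adjusted p = 0.157). It was also lost, with the difference still 1.69, in a fit of only the 4 culture samples (adjusted p = 0.911) and with the culture number as a fixed replicate block there (adjusted p = 1), and without spheres replicate 2 (1.48, adjusted p = 0.0882). With the replicate block in the fit of all samples the value was 1.69 (adjusted p = 0.00537). The test across all samples takes the spread of cultures to be that of the tissues.

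In spheres against normal lung 357 of 583 probes were called (61.2%), 63 higher and 294 lower in spheres. Under the sum 133 were higher and 184 lower, with the 100 most abundant 135 and 184, with the miRNAs detected in every sample 106 and 233, with the 4 mRNA controls 14 and 372, and without scaling 12 and 381. Of the 3 family probes, 2 were called, both lower in spheres, so their share was near that of all probes. The difference in miR-181a was -1.55 (standard error 0.35, 95% interval -2.27 to -0.83, adjusted p = 0.000725) beside a median of -1.18 over all probes. For miR-181c it was -1.61 (standard error 0.42, adjusted p = 0.00261). Under TMM miR-181b/d was at least 1.24-fold higher in normal lung, counted against the detection limit of the spheres (adjusted p = 0.0542). By share of the miRNA sum normal lung (0.0105 and 0.00912 percent) lay below the spheres' values under the limit (0.0181 and 0.0239), which gives no bound. miR-181b/d was called lower in spheres without scaling (adjusted p = 2.87e-05), with the 4 mRNA controls (adjusted p = 0.000567) and with another TMM reference (adjusted p = 0.0468), which made 3 of 3. The sign of its fitted difference changed under the sum (adjusted p = 0.104), the 100 most abundant (adjusted p = 0.0944) and the miRNAs detected in every sample (adjusted p = 0.972), none of them called. Without normal lung replicate 2, the deepest sample, miR-181a differed by -1.65 (adjusted p = 0.00342) and miR-181c by -1.85 (adjusted p = 0.00154).

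The direction against normal lung depended on the scaling. Under TMM miR-181a was lower in spheres by -1.55. Under the sum of mouse miRNAs it was higher by 0.83 (adjusted p = 0.0320), with the median of all probes shifted by 0.89. That median includes many probes under the limit. The median of the 80 probes detected in all samples compared went from -1.01 under TMM to 1.34 under the sum. The mean of the 100 most abundant miRNAs gave 0.86 (adjusted p = 0.0292) with a shift of 0.89, and miR-181c turned with it, to 0.75 and 0.72 under the sum. Without scaling the difference in miR-181a was -4.20 (shift -1.61), and with the 4 mRNA controls -3.86 (shift -1.63). A scaling by the 55 mouse miRNAs detected in every sample, added after the data were seen, gave -0.22 (adjusted p = 0.594) with a shift of 0.53. Relative to the median of all probes, miR-181a differed by -0.37 under TMM and by 1.11 under the sum. It lay below the median of the 80 detected probes under each scaling, and so did not turn relative to that median. Which of spheres and normal lung held more miR-181a per unit of RNA cannot be told apart from the choice of scaling.

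**Figure D2:**
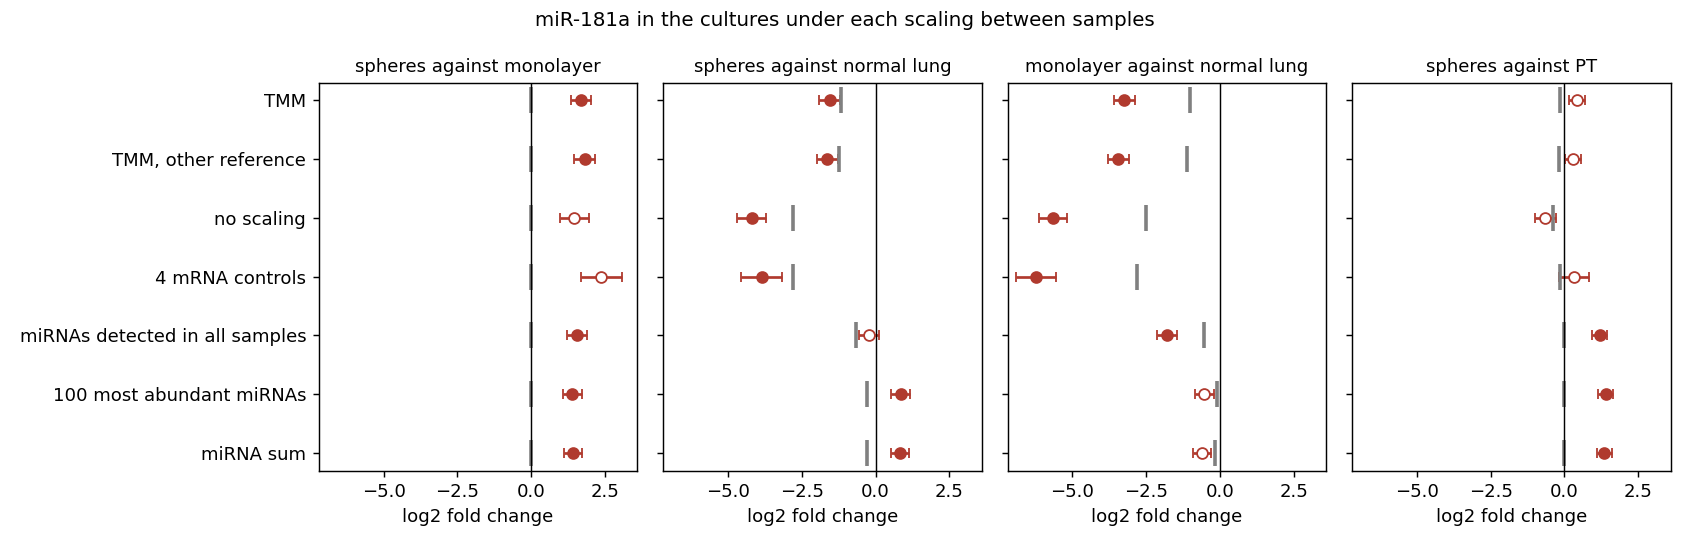
Points are log2 differences in miR-181a under each scaling, with standard errors as bars, filled where the adjusted p was under 0.05, and grey ticks mark the median of all probes. Values against normal lung are negative under TMM and positive for spheres under scaling by the miRNA sum or the 100 most abundant miRNAs, which shift the median by 0.89. That median includes probes under the limit. For the 80 probes detected in all spheres and normal lung samples it was -1.01 under TMM and 1.34 under the sum.

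Monolayer against normal lung had 366 of 583 probes called (62.8%), and 3 of the 3 family probes were called and lower in monolayer. miR-181a differed by -3.24 (standard error 0.35, adjusted p = 7.31e-08), so that normal lung held 9.44-fold more, and miR-181c by -1.93 (adjusted p = 0.000541), beside a median of -1.03. Under TMM miR-181b/d was at least 1.12-fold higher in normal lung (adjusted p = 0.0216), while its share of the miRNA sum gives no such bound. Its call was lost without monolayer replicate 2 (adjusted p = 0.118) and without normal lung replicate 2 (adjusted p = 0.0664). Under the sum of mouse miRNAs miR-181a was still lower in monolayer but not called (-0.60, adjusted p = 0.105, shift of the median 0.88), while miR-181c turned to 0.66 (adjusted p = 0.225) and miR-181b/d was no longer called (adjusted p = 0.108). The mean of the 100 most abundant gave -0.53 for miR-181a (adjusted p = 0.156), with a shift of 0.92. The median of the 69 probes detected in all samples compared was -1.03 under TMM and 1.60 under the sum. This comparison and that of spheres share the normal lung samples.

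Normal lung parenchyma contains blood, vessels and immune cells that the cultures lack, and markers of those cells differed with the groups. In these bulk samples fewer cells of a type and less RNA per cell cannot be told apart. The 2 endothelial markers, miR-126-3p and miR-126-5p, had 0 counts above background in all 4 culture samples and summed to TMM-scaled levels of 67772 and 70141 in normal lung, 18.5 and 16.9 percent of the miRNA sum, most of it miR-126-3p. miR-126-3p was at least 1967-fold lower in spheres and at least 1785-fold lower in monolayer. Summed levels of this list were 17649 and 10971 in NMG, 1067 to 1894 (median 1646) in carcinoma areas, 1314 to 2626 (median 2349) in EMT-like areas, and 3114, 2590, 819 and 2445 in lung metastases. Vessel markers were therefore absent in the cultures, present in every tissue sample and highest in normal lung.

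The 3 erythroid markers, led by miR-451, summed to 49121 and 55994 in normal lung (13.4 and 13.5 percent), 8118 and 8509 in NMG, 14 and 12.2 in monolayer, and 0 and 4.96 in spheres, where none passed the limit. They summed to 83.7 to 225 (median 144) in carcinoma areas, 92.6 to 297 (median 183) in EMT-like areas, and 348, 424, 533 and 403 in lung metastases. Red cell miRNAs were thus high in the normal tissues and under the limit in the cultures. The 6 leukocyte markers summed to 7042 and 8533 in normal lung, with miR-142-3p the most abundant, 6302 and 3063 in NMG, 857 and 1044 in monolayer, and 960 and 1195 in spheres. In the cultures this sum was mostly miR-155, and miR-142-3p and miR-223 were under the limit in all 4 samples, and miR-150 in all but monolayer replicate 2. miR-142-5p, from the same hairpin as miR-142-3p, passed the limit in all 4, with mean levels of 81.6 in spheres and 72.7 in monolayer, and so did miR-146a. Tumour areas had leukocyte sums of 845 to 2461 (median 991, carcinoma), 1230 to 1647 (median 1271, EMT-like), and 1132, 2107, 1191 and 1600 (lung metastases).

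The 2 smooth muscle and fibroblast markers, mostly miR-145, summed to 13953 and 9932 in normal lung, 6039 and 7591 in NMG, 1371 and 404 in monolayer, and 427 and 493 in spheres. They were 765 to 1689 (median 846) in carcinoma areas, 766 to 1328 (median 1137) in EMT-like areas, and 1086, 765, 688 and 952 in lung metastases. Normal tissues were again above all other samples. The 4 skeletal muscle markers summed to 585 and 1724 in normal lung (mostly miR-1), 1027 and 44.5 in NMG, 104 and 169 in monolayer and 132 and 121 in spheres (mostly miR-206), and at most 75.2 in any tumour sample.

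In spheres against normal lung the calls in these lists were 0 higher and 2 lower of 2 endothelial, 0 and 3 of 3 erythroid, 2 and 4 of 6 leukocyte, 0 and 2 of 2 smooth muscle and 0 and 2 of 4 skeletal muscle markers. With markers under the limit set at it, their median differences were -9.35, -7.87, -4.61, -5.42 and -1.05, beside 0.00 over all probes treated alike, of which 61.2% were called in the fit. Of the 583 probes 465 had a value set at the limit, so this 0.00 rests largely on undetected probes. The 80 probes detected in all samples compared had a median of -1.01. Monolayer against normal lung gave the same counts, with medians of -9.21, -7.73, -4.40, -5.93 and -0.42. In spheres against monolayer, 0 markers of 4 of these lists were called and 1 of 3 erythroid markers, miR-486, which was under the limit in both groups. Medians there were -0.32 for smooth muscle and 0.00 for the other lists. The part of these cell types in the result for miR-181a was not tested.

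Spheres and monolayer were also set beside the primary tumours that the line forms, and both comparisons share the 12 PT samples. Monolayer against PT had 131 of 583 probes called (22.5%) and 1 of the 3 family probes. miR-181a differed by -1.27 (standard error 0.27, adjusted p = 0.000856), 2.41-fold lower in monolayer, with 2 of 2 monolayer samples below all 12 PT samples, whose levels ran from 799 (median 956) to 1517. The call was lost without monolayer replicate 1 (-0.89, adjusted p = 0.0630). Under the mean of the 100 most abundant miRNAs the value was 0.01 (adjusted p = 1), and under the sum -0.07 (adjusted p = 0.961). With the 55 miRNAs detected in every sample it was -0.37 (adjusted p = 0.316). The median of all probes moved by at most 0.14. That of the 64 probes detected in all samples compared went from -0.75 under TMM to 0.51, 0.43 and 0.13 in these scalings. miR-181c had 0.05 (adjusted p = 1), ran from -0.33 to 0.42 without single samples, and was called under the sum (1.21, adjusted p = 0.0115). With the higher background subtracted it turned to -2.03. miR-181b/d had adjusted p = 0.0549 and was called without carcinoma replicate 4 (0.0335), EMT-like replicate 4 (0.0434) or EMT-like replicate 7 (0.0328), the latter values being adjusted p-values. It was also called without scaling (adjusted p = 0.00635), with the 4 mRNA controls (adjusted p = 0.0353) and with the other TMM reference (adjusted p = 0.0221). Without monolayer replicate 2 its adjusted p was 0.408, and it was not called under the 100 most abundant miRNAs or with the 55 shared ones.

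Spheres against PT had 131 of 583 probes called in limma (22.5%), 178 at an unadjusted p under 0.05, and 0 of the 3 family probes by either measure. miR-181a differed by 0.42 (95% interval -0.13 to 0.97, adjusted p = 0.311), and miR-181c by 0.36 (adjusted p = 0.525). miR-181b/d, under the limit in spheres, had adjusted p = 0.171. Under TMM the mean of carcinoma areas was at least 1.10-fold higher, counted against the limit of the spheres, but carcinoma replicates 1 (23.3) and 4 (18.7) lay under that limit. The mean of EMT-like areas also lay under the limit of the spheres on this scale, which gives no bound. Without scaling miR-181b/d was called lower in spheres (adjusted p = 0.00749). By other scalings the members were called. miR-181a was 1.36 higher in spheres under the sum (adjusted p = 0.000218), 1.40 under the 100 most abundant (adjusted p = 0.000207) and 1.20 with the 55 shared miRNAs (adjusted p = 0.00150). Without scaling it was -0.64 (adjusted p = 0.3), where the median of all probes moved by -0.25 against 0.15 under the former 3. That of the 77 probes detected in all samples compared was -0.72 under TMM, -1.75 without scaling, and 0.21, 0.25 and 0.04 under the former 3. miR-181c was 1.28 higher under the sum (adjusted p = 0.0101) and -0.66 without scaling (adjusted p = 0.363). Marker calls against PT, higher then lower, were 0 and 2 of 2 endothelial, 0 and 2 of 3 erythroid, 2 and 3 of 6 leukocyte, 0 and 2 of 2 smooth muscle and 1 and 0 of 4 skeletal muscle markers in spheres. In monolayer they were 0 and 2, 0 and 1, 1 and 3, 0 and 1, and 2 and 0. With undetected markers at the limit, their medians in spheres were -3.91, 0.00, -1.14, -1.47 and 0.00, and in monolayer -3.77, 0.00, -1.17, -1.97 and 0.99, beside 0.00 over all probes. That 0.00 rests largely on undetected probes. The part of the markers in the result was not tested.

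Within primary tumours, carcinoma against EMT-like areas gave 1 called probe of 583 in limma (0.172%) and 81 at an unadjusted p under 0.05. Of the 3 family probes 0 were called, and 1, miR-181c, had an unadjusted p under 0.05. Its difference was 0.70 (standard error 0.24, 95% interval 0.20 to 1.21, unadjusted p = 0.00870, adjusted p = 0.167), with 4 of 5 carcinoma samples above all EMT-like samples, and 0.33 without scaling (adjusted p = 0.655). miR-181a had a difference of 0.30 (standard error 0.20, 95% interval -0.13 to 0.72, adjusted p = 0.531), and -0.10 without scaling, where the median of all probes moved by -0.26. miR-181b/d had 0.37 (adjusted p = 0.664), and -0.01 without scaling. With the animal as a replicate block the values were 0.30 for miR-181a (adjusted p = 0.533) and 0.70 for miR-181c (adjusted p = 0.167). Within the 4 animals or pools with both areas, miR-181c under TMM was higher in carcinoma in 4 of 4, by 0.25 to 0.84 (mean 0.53). By share of the miRNA sum it was lower in carcinoma replicates 1 (0.0253 percent against 0.0260) and 5 (0.0166 against 0.0184). It was higher by share in carcinoma replicates 2 (0.0213 against 0.00960) and 4 (0.0182 against 0.0135). For miR-181a the within-animal differences under TMM were 0.61, 0.09, -0.21 and 0.66.

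Animals were labelled in a lettered and a numbered series. Under TMM the carcinoma minus EMT-like difference in miR-181c was 0.87 in the lettered and 0.43 in the numbered series, without overlap of the areas in either. By share of the miRNA sum the areas overlapped in both series. There EMT-like replicate 1 (0.0260 percent) was above carcinoma replicate 2 (0.0213), and EMT-like replicate 4 (0.0184) above carcinoma replicate 4 (0.0182). For miR-181a the difference under TMM was 0.37 and 0.24, with overlap in the numbered series.

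Lung metastasis against PT had 18 of 583 probes called in limma (3.09%) and 90 at an unadjusted p under 0.05. Again 0 of the 3 family probes were called, and 1, miR-181c, had an unadjusted p under 0.05. Its difference was 0.55 (standard error 0.24, 95% interval 0.06 to 1.05, unadjusted p = 0.0309, adjusted p = 0.242), and that of miR-181a was -0.18 (standard error 0.20, 95% interval -0.60 to 0.24, adjusted p = 0.838). Without scaling they were 0.01 (adjusted p = 1) and -0.75 (adjusted p = 0.136), and with the 4 mRNA controls 0.26 and -0.47. With the animal as a replicate block they were 0.56 (adjusted p = 0.240) and -0.18 (adjusted p = 0.843). miR-181b/d had 0.27 (adjusted p = 0.853), and -0.28 without scaling, which moved the median of all probes by -0.23. Within 4 animals or pools, miR-181c was higher in the metastasis in 4 of 4, by 0.39 to 0.61 (mean 0.50), miR-181b/d in the 3 where the metastasis passed the limit (0.01, 0.37 and 1.5), and miR-181a in 2 of 4 (0.08, -0.76, -0.79 and 0.38). In 2 of these 4 the only PT sample was an EMT-like area, the area with the lowest mean of miR-181c. Against carcinoma areas alone miR-181c was 0.14 higher in lung metastases, with overlap (adjusted p = 1, 1.37% of probes called). In the lettered and numbered series the difference was 0.15 and -0.27 for miR-181a, -0.55 and 0.65 for miR-181b/d, and 0.53 and 0.66 for miR-181c.

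The cell type lists were read beside these values. Carcinoma against EMT-like had 0 of 2 endothelial, 0 of 3 erythroid, 0 of 6 leukocyte, 0 of 2 smooth muscle and 0 of 4 skeletal muscle markers called in limma, with medians of -0.50, -0.08, -0.05, -0.12 and 0.00 (undetected markers at the limit) beside 0.00 over all probes. That 0.00 rests largely on undetected probes, and the 130 detected in all samples compared had a median of 0.15. Lung metastasis against PT had 1 erythroid marker higher (miR-451, 1.48, adjusted p = 0.00215) and 1 leukocyte marker higher (miR-150, 2.65, adjusted p = 5.00e-05, mean levels 256 against 40.2), and none of the other 3 lists, with medians of 0.08 (endothelial), 1.48 (erythroid), 0.44 (leukocyte), -0.13 (smooth muscle) and 0.31 (skeletal muscle). Their part in the values of miR-181c was not tested.

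Against normal mammary gland, carcinoma had 171 of 583 probes called in limma (29.3%; 217 at an unadjusted p under 0.05) and EMT-like areas 145 (24.9%; 206 unadjusted). Both comparisons, which share the NMG samples, had 0 of 3 family probes called and 0 at an unadjusted p under 0.05. miR-181a differed by 0.54 in carcinoma (standard error 0.29, adjusted p = 0.185) and by 0.25 in EMT-like areas (standard error 0.28, adjusted p = 0.628). One NMG sample decided the latter's sign: without NMG replicate 2 the values were 0.21 and -0.09, and without NMG replicate 1 they were 0.87 and 0.58, none of them called. Both signs turned with the scaling: for carcinoma it was 0.99 under the sum (adjusted p = 0.00734, shift of the median 0.35) and -1.03 without scaling (adjusted p = 0.0398, shift -1.15). For EMT-like areas it was 0.90 under the sum (adjusted p = 0.0116, shift 0.30) and -0.93 without scaling (adjusted p = 0.0668, shift -0.86). miR-181b/d had 0.84 in carcinoma (adjusted p = 0.192) and 0.47 in EMT-like areas (adjusted p = 0.522), and turned to -0.68 and -0.67 without scaling, while the sum gave 1.26 (adjusted p = 0.0424) and 1.08 (adjusted p = 0.0688). miR-181c was lower in 7 of 7 EMT-like samples than in both NMG samples, with a difference of -0.60 (standard error 0.33, adjusted p = 0.217) that was 0.03 under the sum. It was called lower without scaling (-1.76, adjusted p = 0.00253) and with the 4 mRNA controls (-1.60, adjusted p = 0.0484, shift -0.70). In carcinoma it was 0.10 (adjusted p = 0.946), -0.02 without NMG replicate 1, and -1.44 without scaling (adjusted p = 0.0123). All PT samples together against NMG, where 28.6% of probes were called, had 0.37 for miR-181a (adjusted p = 0.364).

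Marker calls against NMG, higher then lower, were 0 and 2 of 2 endothelial, 0 and 3 of 3 erythroid, 2 and 3 of 6 leukocyte, 0 and 2 of 2 smooth muscle and 0 and 2 of 4 skeletal muscle markers in carcinoma. In EMT-like areas they were 0 and 2, 0 and 3, 1 and 3, 0 and 2, and 0 and 1. Medians were -3.37, -5.26, -1.20, -3.23 and -0.94 in carcinoma and -2.87, -5.79, -0.96, -3.10 and -0.75 in EMT-like areas, with undetected markers at the limit. What these had to do with the levels of miR-181a was not tested.

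Lung metastases were compared with normal lung, the tissue in which they grew: 287 of 583 probes were called (49.2%), among them 2 of the 3 family probes, both lower in metastases. miR-181a differed by -2.15 (standard error 0.30, adjusted p = 4.75e-06), 4.44-fold lower, and miR-181c by -1.42 (standard error 0.36, adjusted p = 0.00298), beside a median of -0.90. All 4 metastases were below both normal lung samples for both. miR-181b/d had -0.12 (adjusted p = 0.879), and 0.06 without lung metastasis replicate 1. Under the sum of mouse miRNAs the difference in miR-181a was -0.67 (adjusted p = 0.0539, shift of the median 0.74), miR-181c turned to 0.03, and miR-181b/d turned to 1.30 (adjusted p = 0.0282). miR-181b/d was called in the other direction without scaling (-2.23, adjusted p = 0.00193, shift -1.43) and with the 4 mRNA controls (-2.59, adjusted p = 0.00265, shift -1.72). All 2 endothelial, 3 erythroid and 2 smooth muscle markers and 3 of 4 skeletal muscle markers were lower in metastases, and of 6 leukocyte markers 2 were higher and 4 lower. Their median differences were -5.36, -6.90, -4.09, -2.72 and -2.52, and their part in the result was not tested.

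Normal lung against NMG, which shares the normal lung samples with the comparisons above, had 68 of 583 probes called (11.7%) and 2 of the 3 family probes, both higher in lung. miR-181a was 2.34 higher (standard error 0.35, adjusted p = 3.72e-05), or 5.07-fold, and 2.11 and 2.58 higher within the number that each lung and gland sample carried. Under each scaling it was called, from 1.46 (100 most abundant) to 3.59 (4 mRNA controls), with shifts of the median of -0.60 and 1.05. With the sample number as a fixed replicate block and only these 4 samples it was 2.34 without a call (adjusted p = 0.117). miR-181c was 1.67 higher (standard error 0.42, adjusted p = 0.00868). That call disappeared without NMG replicate 1 (1.55, adjusted p = 0.0548) and under the sum (0.80, adjusted p = 0.336). miR-181b/d had 1.01 (adjusted p = 0.265). Both endothelial markers (median 2.36) and 2 of 3 erythroid markers (median 2.73) were higher in lung, and so was 1 of 6 leukocyte markers (median -0.07). None of the smooth muscle (median 0.80) or skeletal muscle markers (median 1.92) was called, and the part of these cells was not tested.

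The difference of tumour from normal tissue was itself compared between organs, by a test added after the data were seen. In miR-181a, lung metastasis minus normal lung was lower than PT minus NMG by -2.52 (standard error 0.40, adjusted p = 0.000125), where 67 of 583 probes were called (11.5%) and the median was -0.38. By its terms this gap is lung metastasis minus PT (-0.18, adjusted p = 0.838 in limma) less normal lung minus NMG (2.34). It thus mostly repeats the difference between the normal tissues given above, from the same normal samples, and is no separate result. The gap was called under each scaling, from -4.06 to -1.60, and ran from -2.85 to -2.19 without each sample in turn. miR-181b/d had -0.74 (adjusted p = 0.575) and miR-181c -1.12 (adjusted p = 0.146), so 1 of the 3 family probes was called. miR-181c was called without scaling (-1.92, adjusted p = 0.0404, median of all probes -0.91) and with the 4 mRNA controls (-2.66, adjusted p = 0.0329, median -1.55), and had -0.21 under the sum, where miR-181b/d turned to 0.14 (median 0.25).

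Ratios of members within a sample do not depend on scaling between samples, and they were taken as log2 of counts plus 1, where both members were detected. The ratio of miR-181a to miR-181b/d averaged 4.96 ± 0.78 in carcinoma areas (4 samples), 5.13 ± 0.47 in EMT-like areas (7), 4.71 ± 0.80 in lung metastases (3) and 5.39 ± 0.64 in NMG (2). It was 6.78 and 6.62 in normal lung, above the ratio of each other sample with both detected (at most 5.84). Carcinoma minus EMT-like was -0.17 (exact permutation p = 0.679) and lung metastasis minus PT was -0.36 (exact permutation p = 0.390, adjusted p = 0.679 for both). The former was 0.13 without carcinoma replicate 2 and the latter 0.01 without lung metastasis replicate 3.

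The ratio of miR-181a to miR-181c, added after the data were seen, was 4.67, 4.22, 4.26 and 4.87 in lung metastases, 5.06, 4.98, 4.51, 4.91 and 5.60 in carcinoma areas, and 4.97 to 5.74 (median 5.64) in EMT-like areas. It was 5.12 and 5.41 in normal lung and 5.06 and 4.15 in NMG. With both members detected, monolayer replicate 2 had 3.91 and spheres replicate 2 had 5.23. All lung metastases were below all EMT-like areas, and they overlapped with carcinoma areas.

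Lung metastasis minus PT was -0.75 in this ratio (exact permutation p = 0.00604 over 1820 arrangements, adjusted p = 0.0121), and it was lower in 4 of 4 animals or pools, by -1.40 to -0.26 (mean -0.80). For lung metastasis replicates 3 and 4 the only PT sample was an EMT-like area. The ratio averaged 5.44 in EMT-like areas, 5.01 in carcinoma areas and 4.51 in lung metastases. Lung metastases against carcinoma areas alone were not tested in this ratio. The 12 PT areas came from 8 animals or pools, 4 of which gave both kinds of area, and each metastasis came from an animal or pool that also gave PT. The permutation treats these areas as separate samples, and the values within animals were not tested. The numbered series alone gave -0.95 (exact p = 0.00833, the smallest possible there) and the lettered series -0.38 (exact p = 0.5). With a higher background subtracted the difference was -0.70 and not called (exact p = 0.214). Carcinoma minus EMT-like was -0.42 (exact permutation p = 0.0644), and it passed without EMT-like replicate 1 (-0.50, exact p = 0.0346) and without carcinoma replicate 5 (-0.57, exact p = 0.0121). It was -0.30 without carcinoma replicate 3 (exact p = 0.148), and within animals or pools it was lower in 2 of 4, from -0.76 to 0.39 (mean -0.25). Such a ratio cannot say which of the 2 members differed.

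**Figure D3:**
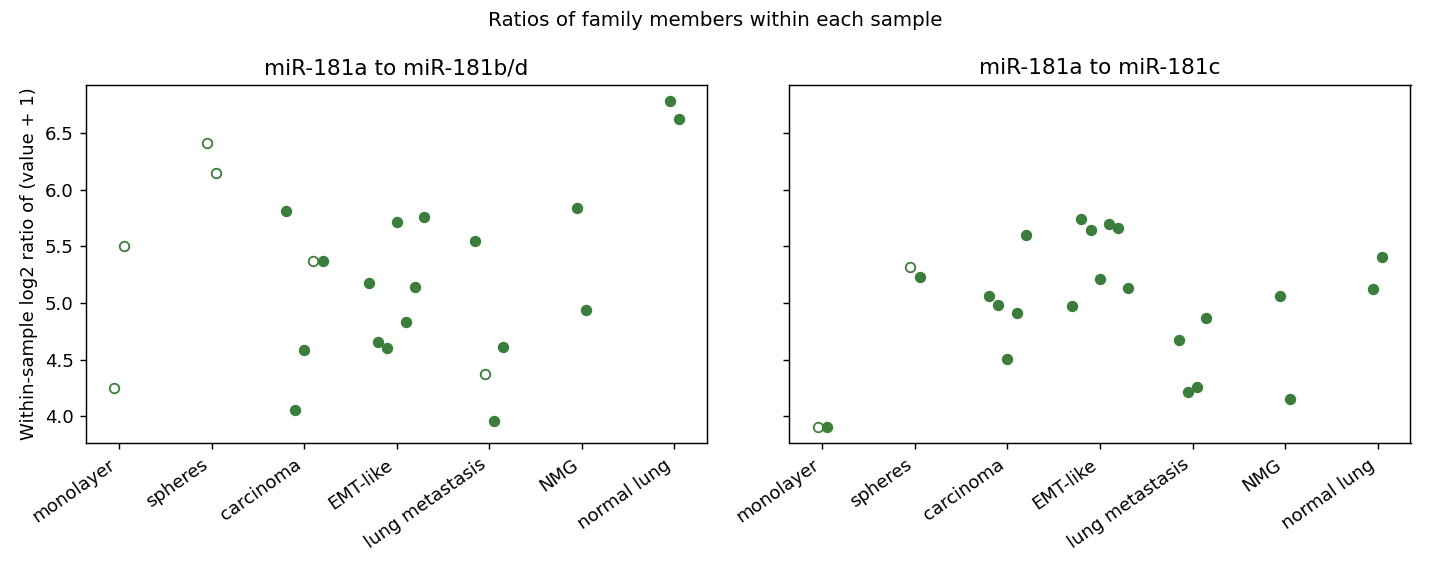
Each point is the within-sample log2 ratio of miR-181a to miR-181b/d (left) or to miR-181c (right), by group. Filled points have both members above the detection limit, and open points have a member under it.

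The mouse miRNAs whose 7 group means followed those of miR-181a most closely were sought among 193 that were detected in at least 12 of 24 samples. They were miR-222 (Pearson r 0.911), miR-331-3p (0.910), miR-652 (0.854), miR-30d (0.811) and miR-151-5p (0.810). Group means of TMM-scaled miR-222 were 3.11 in monolayer, 86.5 in spheres, 37.3 in carcinoma, 47.4 in EMT-like areas, 32.3 in lung metastases, 19.4 in NMG and 176 in normal lung. Like miR-181a, miR-222 had its highest mean in normal lung and its second highest in spheres. It was under the limit in both monolayer samples, so its mean there is not ranked, and its r rests partly on that mean. Likewise under the limit were miR-331-3p in monolayer (mean 6.89) and miR-652 in monolayer (8.20) and spheres (11.8). Within the family r was 0.846 for miR-181c and 0.631 for miR-181b/d, the latter resting partly on culture values under the limit. These are descriptions over 7 means that share their scaling.

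A list of 11 miRNAs linked to TGF-beta or mesenchymal state, miR-222 among them, was read beside miR-181a. In spheres against monolayer 1 of 11 was higher and none lower: miR-222, with counts of 41 and 41 in spheres and at least 2.48-fold above the limit of monolayer (adjusted p = 0.00315). The median of the list was 0.04, beside 0.00 over all probes, of which 4.63% were called. Summed levels of the list were 3685 and 1674 in monolayer, 2273 and 2910 in spheres, 6129 to 12946 (median 8393) in carcinoma, 6235 to 12279 (median 8233) in EMT-like areas, 5091, 6215, 3289 and 5693 in lung metastases, 14656 and 14781 in NMG, and 11911 and 12202 in normal lung. By these TMM-scaled sums the cultures lay below all tumour samples except in the overlap of monolayer replicate 1 with lung metastasis replicate 3. By percent of the miRNA sum they overlapped more widely. Monolayer replicate 1 (5.10) was above carcinoma replicate 2 (4.41), and spheres replicate 2 (3.51) above lung metastasis replicate 4 (3.39).

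Against normal lung, 2 of the 11 were higher and 5 lower in spheres, and 2 and 6 in monolayer. With undetected miRNAs at the limit the medians were -1.03 and -2.34, beside 0.00 over all probes treated alike in each. That 0.00 rests largely on undetected probes, and those detected in all samples compared had medians of -1.01 and -1.03. Among all probes 61.2% and 62.8% were called there, so the list's share, 7 and 8 of 11, was near that of the panel. miR-199a-3p had 0 counts in the cultures and a mean level of 3010 in normal lung, at least 95.3-fold above spheres, whereas miR-9 had means of 635 in spheres and 715 in monolayer against 13.4 in normal lung. In lung metastasis against normal lung 2 were higher and 5 lower (median -1.55), and in normal lung against NMG 2 and 1 (median -0.15), beside 49.2% and 11.7% of all probes called. Against NMG 3 were higher and 3 lower in carcinoma (median 0.06), and 3 and 2 in EMT-like areas (median 0.17), beside 29.3% and 24.9% of all probes. Against PT 1 was higher and 6 lower in monolayer (median at the limit -1.25), and 1 and 5 in spheres (median -1.22), beside 22.5% of all probes in each.

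Between carcinoma and EMT-like areas 0 of the 11 were called in limma (median -0.21, all probes -0.16). In lung metastasis against PT 4 of 11 fell and none rose (median -0.86, all probes 0.00, 3.09% of them called): miR-10b (adjusted p = 0.00105; above the limit in 1 of 4 metastases and 12 of 12 PT samples, so no size is given), miR-199a-3p (-1.44), miR-199a-5p (-1.39) and miR-27a (-0.95). miR-181a was not called in that comparison.

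The 7 epithelial miRNAs of the miR-200 family, miR-203 and miR-205 were all under the limit in spheres, with sums of 83.6 and 54.5, and summed to 96.3 and 112 in monolayer. Sums were 930 to 5385 (median 2806) in carcinoma areas, 59.4 to 1758 (median 396) in EMT-like areas, 4671, 2653, 2915 and 2509 in lung metastases, 2925 and 4061 in NMG, and 5068 and 6063 in normal lung. The cultures and part of the EMT-like samples were thus low, and carcinoma areas, metastases and normal tissues mostly high. Between spheres and monolayer 0 of 7 were called in limma, and against normal lung 7 of 7 were lower in spheres (median at the limit -4.63) and in monolayer (-4.49), where 61.2% and 62.8% of all probes were called in either direction. Carcinoma against EMT-like areas had 0 of 7 called with a median of 2.79, miR-200b at 2.79 (adjusted p = 0.0617), and lung metastasis against PT had 1 higher, miR-203 (2.62, adjusted p = 0.0167), with a median of 2.26, beside 0.172% and 3.09% of all probes called. Against NMG 1 of 7 was lower in carcinoma (median -0.57) and 4 of 7 in EMT-like areas (median -3.57), beside 29.3% and 24.9% of all probes. Lung metastasis against normal lung had 1 of 7 lower (median -0.73), normal lung against NMG 0 of 7 (median 0.94), and 5 of 7 were lower than in PT in monolayer and in spheres (medians at the limit -0.49 and -0.77). All probes were called at 49.2% and 11.7% in the former comparisons and at 22.5% in each of those against PT.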

How the data were processed

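Mouse miRNA probes were counted on the NanoString nCounter platform. The deposited values are whole-number barcode counts from which each sample's average over 6 negative control probes had been taken off, a step seen in the values, and neither the labels nor the methods text at hand, which refers to a supplement, says whether the authors scaled samples. Negative values were set to 0. Of 566 mouse and 33 viral miRNA probes, 583 were tested. Samples were scaled by TMM (trims of 30 and 5 percent, reference carcinoma replicate 2), and log2 of the level plus 1 was fitted over 7 groups with limma 3.58.1 (trended variance) in R 4.3.3, with Benjamini-Hochberg adjustment over all probes and calls at 0.05. Figures were drawn in Python 3.11.15 with matplotlib 3.10.9. The script was tested on simulated data.

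The members, lists and tests were chosen with earlier results of these data known. Named neighbours were the 5 mouse miRNAs with the highest Pearson correlation to miR-181a over group means. The cell type lists held 6 leukocyte (miR-142-3p, miR-142-5p, miR-150, miR-155, miR-223, miR-146a), 3 erythroid (miR-144, miR-451, miR-486), 2 endothelial (miR-126-3p, miR-126-5p), 2 smooth muscle and fibroblast (miR-143, miR-145) and 4 skeletal muscle miRNAs (miR-1, miR-133a, miR-133b, miR-206). miR-155 is in both the leukocyte and the TGF-beta list. Alternatives were no scaling, scaling by the 100 most abundant miRNAs, the miRNA sum, the 4 mRNA controls (Actb, B2m, Gapdh, Rpl19) or another TMM reference, a filter (20 in 2 samples), a higher background, a pseudocount of 10, fits limited to the groups compared, a replicate block by animal or culture number, and each sample left out in turn. Scaling by the 55 miRNAs above the limit in every sample, the ratio of miR-181a to miR-181c, the comparison between organs and the order of miR-181a under each scaling were added after seeing the data. Depth was 26420 to 2335745 summed counts per sample, with 104 to 368 mouse miRNAs detected.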

Additional observations from a re-analysis of the deposited data

Results flagged for a closer look

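Samples far from the rest of their group were sought in 23 groups of values, of which chance picks about 1 in 20. EMT-like replicate 6 stood above the others of its group in miR-181a, at a TMM-scaled level of 1280 beside a median of 910. Lung metastasis replicate 4 stood apart in the share of miR-181c, at 0.0208 percent of its miRNA sum.

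The difference in miR-181a between lung metastasis and normal lung was set against that between PT and NMG. The gap was -2.52 on the log2 scale (adjusted p = 0.000125 in limma, from the test of the difference itself). It rests on 2 samples of each normal tissue and mostly repeats their difference (normal lung minus NMG 2.34), as lung metastasis minus PT was -0.18. Its cause was not tested.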

How the results depend on the processing

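Each result was computed under 5 to 12 other settings and without each sample of its groups. Of the counts of called members and ratio differences, 238 values were labelled kept, 27 weaker, 22 stronger, 5 moved and 0 turned. For ratios, kept means the same direction and side of the threshold. For counts, it includes changes from 2 to 3 and from 3 to 2. Of the single-member differences, 537 kept their direction and side of the threshold, 30 were weaker, 32 stronger, 42 moved and 16 turned. The cause was not tested for any of them. Members called in carcinoma against EMT-like areas and in lung metastasis against PT were 0 under each of 12 settings in limma (with TMM, 1 each at an unadjusted p under 0.05).

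Called members in spheres against monolayer went from 1 to 0 without scaling, with the 4 mRNA controls, in the fit of only these groups and with the fixed replicate block there. In spheres against normal lung they went from 2 to 1 under the 100 most abundant and under the sum, to 0 with the 55 shared miRNAs, and to 3 without scaling, with the 4 mRNA controls, the other TMM reference and the higher background. In monolayer against normal lung they went from 3 to 0 under the 100 most abundant and the sum, and to 1 with the shared miRNAs and in the fit of only these groups. Carcinoma against NMG went from 0 to 2 without scaling, under the 100 most abundant and under the sum. EMT-like areas against NMG went from 0 to 1 under these and under the mRNA controls. Lung metastasis against normal lung went from 2 to 1 under the 100 most abundant, the sum and the shared miRNAs, and to 3 without scaling and with the mRNA controls. Normal lung against NMG went from 2 to 1 under the 100 most abundant, the sum, the shared miRNAs, the other TMM reference, the higher background and the fit of only these groups, to 0 with the fixed replicate block, and to 3 with the mRNA controls. Monolayer against PT went from 1 to 2 without scaling, with the mRNA controls, the other reference, the filter (323 probes tested), the higher background and the pseudocount of 10, and to 0 with the shared miRNAs. Spheres against PT went from 0 to 1 without scaling and to 2 under the 100 most abundant, the sum and the shared miRNAs.

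Turned values, under the 100 most abundant and the sum, were 0.86 and 0.83 (miR-181a) and 0.75 and 0.72 (miR-181c) in spheres against normal lung. They were 0.72 and 0.66 (miR-181c) in monolayer against normal lung, and 1.29 and 1.30 (miR-181b/d) and 0.03 and 0.03 (miR-181c) in lung metastasis against normal lung. The fitted values of miR-181b/d in monolayer against normal lung (1.06 and 0.99) are also counted, but the probe was under the limit in monolayer, so they give no measured size or direction. A changed sign counts as turned where the member was called under TMM or under the other setting, and as moved where it was called under neither, such as miR-181a in EMT-like areas against NMG without scaling (-0.93). Carcinoma against NMG turned without scaling to -1.03 (miR-181a) and -1.44 (miR-181c). Monolayer against PT turned to 0.01 in miR-181a under the 100 most abundant, and to -2.03 in miR-181c with the higher background.

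The ratio of miR-181a to miR-181b/d moved in carcinoma against EMT-like areas to 0.02 with the higher background and to 0.16 in the numbered series, and in lung metastasis against PT to 0.69 in the lettered series. The ratio to miR-181c in lung metastasis against PT was not called with the higher background (-0.70, exact p = 0.214) or in the lettered series (-0.38, exact p = 0.5, where 0.167 is the smallest possible).

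Without each sample in turn, called members ran from 0 (without spheres replicate 2) to 1 in spheres against monolayer, from 2 to 2 in spheres against normal lung and in lung metastasis against normal lung, from 2 to 3 in monolayer against normal lung, from 1 (without NMG replicate 1) to 2 in normal lung against NMG, and from 0 (without monolayer replicate 1) to 2 in monolayer against PT. In the other 5 comparisons they were 0 each time. Ratio differences ran from -0.45 to 0.13 and from -0.78 to 0.01 for miR-181b/d, and from -0.57 to -0.30 and from -0.87 to -0.66 for miR-181c, in carcinoma against EMT-like areas and lung metastasis against PT. A group left with 1 sample is taken to vary like the others.

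The replicate block was estimated with a consensus correlation of -0.00510. Over 196 probes, tumour samples of the same animal had a median correlation of 0.103 (10 pairs, 5 of them over 0.1) and those of other animals 0.0827 (32 pairs), cultures of the same number 0.0565 and normal samples of the same number -0.134. The block in the fit of all samples changed no count of called members.

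The cultures had the lowest depth and 104 to 126 detected miRNAs, and miR-181b/d was under the limit there. Whether depth or a low level of miR-181b/d put it there was not tested. Groups of 2 leave the spread to be taken from the other groups.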
